A study of Rattus norvegicus with 24 samples.

Results

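The proteasome is the protease that degrades proteins tagged with ubiquitin, and the genes of its subunits and helpers carry the prefix Psm. Members were all probe sets of 2 Affymetrix arrays whose single gene symbol in the platform annotation begins with Psma, Psmb, Psmc, Psmd, Psme, Psmf or Psmg, with the immunoproteasome genes Psmb8, Psmb9 and Psmb10 left out. This gave 58 of 31142 probe sets and 43 genes, with 43 probe sets on the array RAE230A and 15 on RAE230B. Kidney RNA of male rats came from the congenic substrains ET3x2 and ET3x1 and from the inbred Dahl salt-sensitive strain SS/jr, called S here. From general knowledge of these strains, both substrains carry a segment of chromosome 3 around the endothelin 3 gene Edn3 from a salt-resistant strain on the S background. The rats of all 3 strains ate 0.4% NaCl until they were 39 to 41 days old, then 2% NaCl for 28 days, and the left kidney was taken at 67 to 69 days of age, so that no kidney was measured on the lower salt diet alone. A pool mixed equal RNA of 3 rats in ET3x2 (pools I, J, K and L) and in ET3x1 (pools E, F, G and H), and of 2 rats in S (pools A, B, C and D). These 12 pools held 32 rats, each pool was hybridised to both arrays, and a pool was 1 replicate, so that the spread between single rats is not seen. In whole kidney, fewer cells of a type and less RNA per cell cannot be told apart.

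The proteasome joins a barrel, the core particle, to a cap, the regulatory particle. The outer rings of the barrel are alpha subunits (Psma), which gate the entry, and the inner rings are beta subunits (Psmb), some of which cut peptide bonds. The base of the cap holds a ring of ATPases (Psmc) that unfold the substrate and a few other subunits, and its lid (most Psmd) removes ubiquitin. Activators (Psme) can take the place of the cap, Psmf1 is an inhibitor, and chaperones (Psmg, Psmd5, Psmd9 and Psmd10) guide assembly. All cells of the kidney use these genes for protein turnover.

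The core particle was covered by 16 probe sets of 13 genes, 8 in the alpha ring and 8 in the beta ring. The regulatory particle was covered by 25 probe sets of 17 genes: 9 for base ATPases, 3 for other base subunits and 13 for the lid. There were 6 probe sets for 3 activator genes, 1 for the inhibitor and 8 for 7 assembly chaperones. Psmc3ip, a partner in meiotic recombination, and Psme3ip1, a binding partner of the activator Psme3, entered by their symbols only. A further 7 probe sets of the family carry several symbols and are not members, so that the catalytic subunit Psmb6 and the activator Psme3 have no value here.

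Deposited values were read as log2 signal, an inference from their range, on which 1 unit is a doubling. All 58 probe sets passed the filter on low signal, a mean over the 12 pools at or above the 30th percentile of the array (7.52 on RAE230A, 6.85 on RAE230B). The members were bright, with a median percentile of mean signal of 86.9 on RAE230A and 81.1 on RAE230B. Levels of different probe sets are not compared, since brightness depends on the probe. Differences are the first-named strain minus the second in log2 signal, tested with limma over all 21799 probe sets that passed, and a probe set was called at an adjusted p under 0.05 (Benjamini and Hochberg, within array and contrast). Of 8 kidney marker genes 7 passed the filter, and the hepatocyte markers Alb and Apoa1 did not. Pools J, A and B stood apart in the beta-actin control probe sets, which compare the 5' with the 3' part of the transcript. On RAE230A the 5' minus the 3' signal was −1.27 to −1.14 in these 3 pools and −2.10 to −1.66 in the other 9. On RAE230B it was −1.39 to −1.07 in the 3 pools and −2.11 to −1.52 in the other 9. In the Gapdh control probe sets the same 3 pools overlapped with the other 9, at −0.81 to −0.64 beside −1.04 to −0.71 on RAE230A and −0.90 to −0.61 beside −1.12 to −0.62 on RAE230B.

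No member was called in any of the 3 contrasts. Over all tested probe sets, 0.44% were called for ET3x1 over S, 0.344% for ET3x2 over S and 1.48% for ET3x2 over ET3x1, so that 0 of 58 is near the background in each. At an unadjusted p under 0.05 there were 6 members for ET3x1 over S, beside 11.8% of all tested, and all 6 were higher, beside 7.44%, with none lower, beside 4.41%. For ET3x2 over S there were 8, beside 10.9%, of which 7 were higher, beside 6.89%, and 1 was lower, beside 3.98%. For ET3x2 over ET3x1 there were 5, beside 13.1%, of which 3 were higher, beside 6.71%, and 2 were lower, beside 6.39%. The members' shares in either direction were 10.3%, 13.8% and 8.62% in the same order of contrasts, near those of all tested probe sets. On RAE230A the 43 members had 11.6%, 16.3% and 9.30%. The tested probe sets of that array at or above the members' median level had 19.0%, 16.1% and 16.2%.

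The median member difference was 0.031 for ET3x1 over S, beside −0.0047 for all tested probe sets. It was 0.040 for ET3x2 over S, beside 0.025, and 0.023 for ET3x2 over ET3x1, beside 0.032. The 95% intervals of single members had a median half-width of 0.23, so that smaller differences could not be told from 0 in most subunits. The farthest interval ends were −0.57 and 0.76 for ET3x1 over S and −0.53 and 0.67 for ET3x2 over S. Both contrasts with S use the same S pools.

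**Figure D1:**
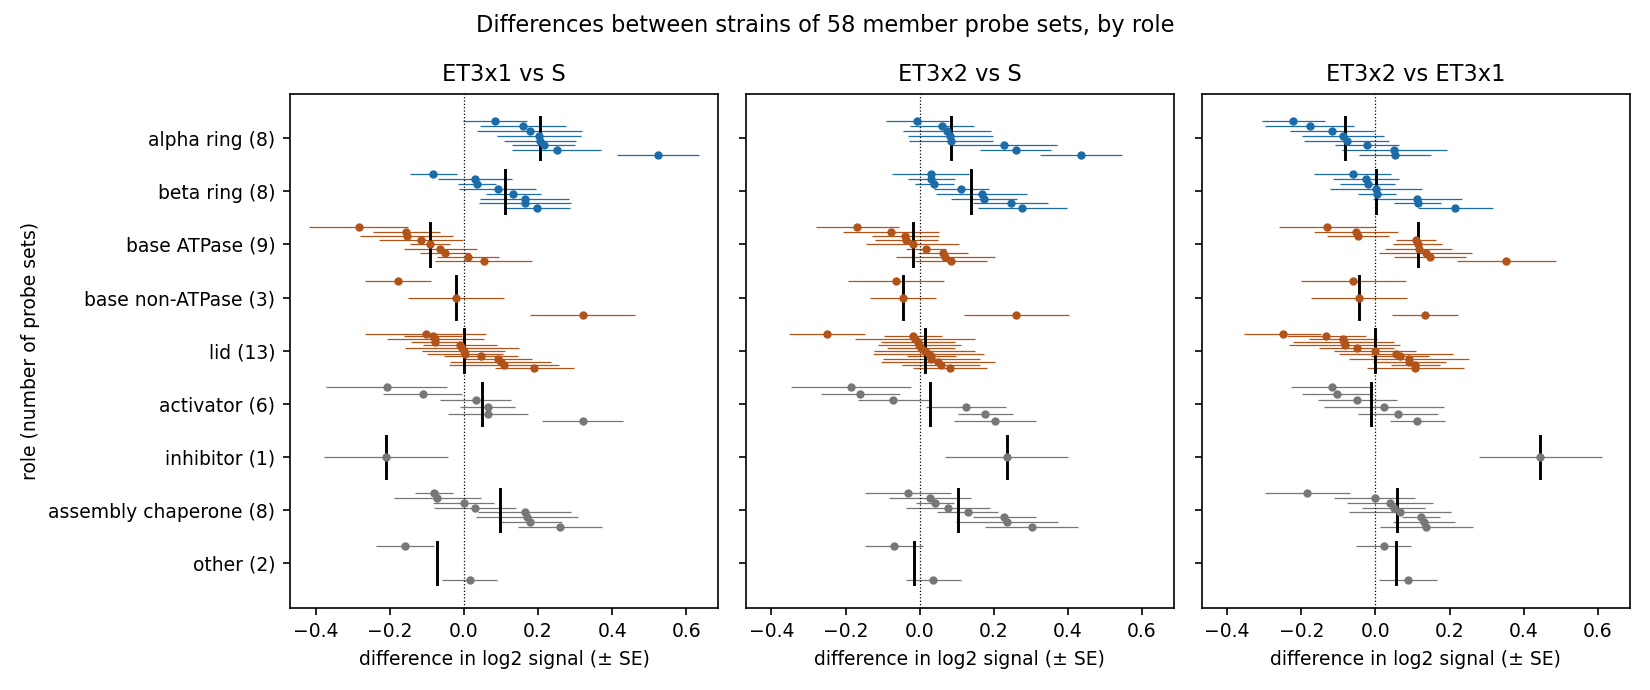
Difference in log2 signal of each of the 58 member probe sets (points, with standard errors as lines), by role, in 3 panels for the 3 contrasts. Black bars are the medians of the roles: for ET3x1 over S that of the alpha ring is at 0.20 and that of the base ATPases at −0.091.

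Core particle probe sets lay slightly higher in both congenic strains than in S, with no single probe set past the threshold. For ET3x1 over S, 15 of 16 were higher, beside 48.4% of all tested probe sets, with a median of 0.16. The alpha ring had a median of 0.20 (8 of 8 higher) and the beta ring 0.11 (7 of 8). For ET3x2 over S, 15 of 16 were higher as well, beside 59%, with a median of 0.098. For ET3x2 over ET3x1, 7 of 16 were higher, beside 60.8%, with a median of −0.022. Of tested RAE230A probe sets at or above the members' median level, 54.3%, 60.9% and 55.4% were higher in the same order of contrasts. Subunits are read in the same 12 pools and are not replicates, so these counts describe the pools and carry no test. Without pools J, A and B, here and below, S rests on pools C and D only. A and B were the S pools lowest in the core, so that leaving them out raises the core mean of S. In that run the core median was 0.064 for ET3x1 over S, less than the full value by more than 1.5 times, with 12 of 16 higher. It was 0.075 for ET3x2 over S, with 13 of 16 higher, and 0.040 for ET3x2 over ET3x1. Without pool B alone it was 0.099 for ET3x1 over S and 0.037 for ET3x2 over S, and for ET3x2 over S it was 0.16 without pool C and 0.18 without pool J.

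The core score of a pool is the mean deviation of the 16 probe sets from their own means over all pools. It was 0.11 in pool I, −0.16 in J, 0.073 in K and 0.14 in L of ET3x2, 0.051 in pool E, 0.14 in F, 0.0047 in G and 0.038 in H of ET3x1 and −0.12 in pool A, −0.25 in B, 0.052 in C and −0.085 in D of S. The strains overlapped: pool C of S lay above E, G and H of ET3x1, and pool J of ET3x2 lay below all S pools but B. Of the 16 probe sets, 14 were below their own mean in J, 15 in A and 16 in B, and 10 had their lowest value of the 12 pools in B. Over all 21799 tested probe sets the mean deviation was 0.0056 in J, 0.019 in A and 0.0056 in B. J, A and B are the pools with the highest actin 5' minus 3' signal, whose part in the core values was not tested. The score averaged 0.042 ± 0.14 in ET3x2, 0.059 ± 0.058 in ET3x1 and −0.10 ± 0.12 in S (SD, n = 4 pools each).

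Psma7, an alpha subunit with a gene on chromosome 3, had the largest member difference of the 3 contrasts and a probe set on each array. Probe set 1382426_at on RAE230B read 9.29, 9.12, 9.20 and 9.61 in the ET3x2 pools and 9.36, 9.31, 9.47 and 9.43 in the ET3x1 pools, against 8.61, 9.08, 8.92 and 8.88 in the S pools. All 8 congenic pools lay above all 4 S pools. The difference was 0.52 for ET3x1 over S (SE 0.11, a ratio of 1.44, 95% interval 0.29 to 0.76, limma adjusted p = 0.0506), just short of the threshold. It was 0.44 (SE 0.11, limma adjusted p = 0.140) for ET3x2 over S and −0.088 (SE 0.11, limma adjusted p = 0.793) for ET3x2 over ET3x1. Over the alternative settings and left-out pools the limma adjusted p for ET3x1 over S ran from 0.0199 to 0.146, on both sides of the threshold. Without pools J, A and B the difference was 0.50 for ET3x1 over S and 0.47 for ET3x2 over S.

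Probe set 1371869_at of Psma7, on RAE230A, read 12.04, 11.80, 12.14 and 12.10 in the ET3x2 pools and 11.98, 12.10, 12.03 and 12.06 in the ET3x1 pools, against 11.95, 11.81, 12.10 and 11.97 in the S pools. The strains overlapped. Its difference was 0.083 for ET3x1 over S (95% interval −0.10 to 0.27) and 0.061 for ET3x2 over S (−0.12 to 0.25), so that the 2 probe sets of Psma7 do not give the same size. In the gene order of RefSeq GRCr8, Psma7 stands 28 protein-coding genes beyond Edn3. The other 5 member genes of chromosome 3 (Psmd5, Psmb7, Psmd14, Psmc3 and Psmf1) come before Edn3. Whether Psma7 lies in the segment that the substrains carry was not tested. Of the 20 protein-coding genes nearest to Psma7, a set chosen after its values were seen, 9 were tested with 13 probe sets, and none was called in any contrast. A probe set of Osbpl2 is on both arrays and is counted on each among the 13. At an unadjusted p under 0.05 limma had 4 of 13 (30.8%) for ET3x1 over S, beside 11.8% of all tested, 1 (7.69%) for ET3x2 over S, beside 10.9%, and 2 (15.4%) for ET3x2 over ET3x1, beside 13.1%. Their differences ran from −0.28 to 0.22 for ET3x1 over S. There 4 of 13 were higher, beside 48.4% of all tested, and for ET3x2 over S 10 of 13, beside 59%. The counts and shares of this set carry no test. Of the 4 under that p for ET3x1 over S, Adrm1 was higher, at 0.22. The others were lower, in Lama5 (−0.28) and in probe sets of Osbpl2 (−0.23) and Phactr3 (−0.14). Adrm1 was also the 1 for ET3x2 over S, at 0.24, and is on the list of proteasome partners below.

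**Figure D2:**
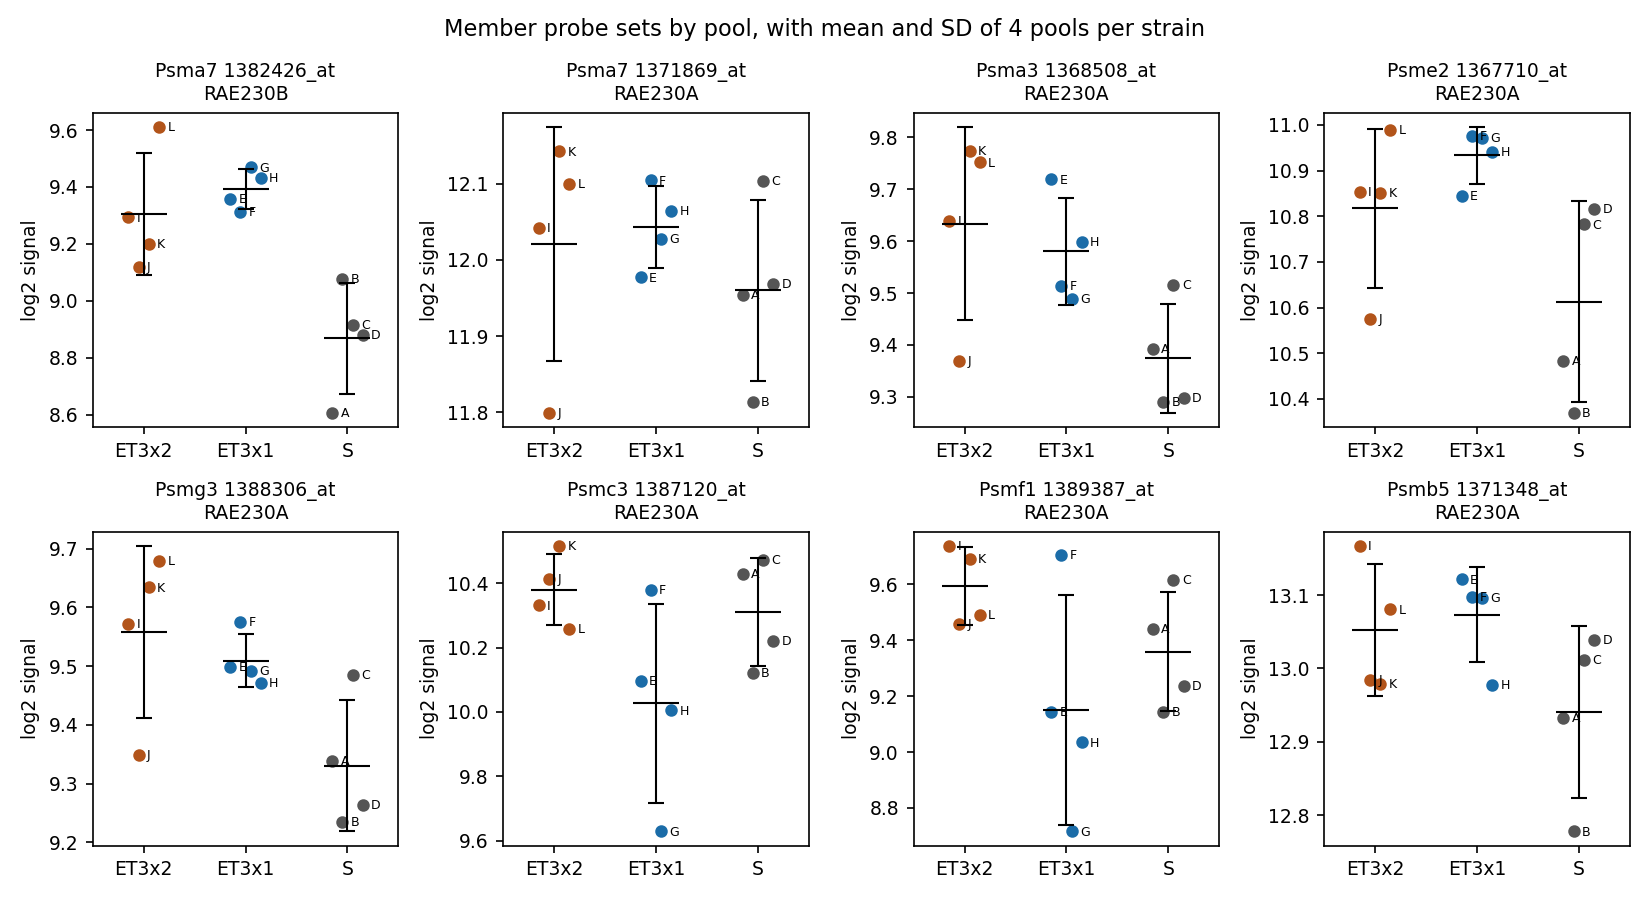
Log2 signal of 8 member probe sets in each pool (points), with the mean and SD of the 4 pools of ET3x2, ET3x1 and S from left to right. Axes differ between panels and do not start at 0. In Psma7 1382426_at all 8 congenic pools lie above the S pools, and in Psma7 1371869_at the strains overlap.

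Psmb7 carries the trypsin-like and Psmb5 the chymotrypsin-like activity of the core. Psmb7 read 12.30, 11.91, 12.23 and 12.22 in the ET3x2 pools and 12.25, 12.14, 12.24 and 12.14 in the ET3x1 pools, against 11.96, 11.88, 12.13 and 11.996 in the S pools. The ET3x1 pools lay above the S pools by a narrow margin, and pool J of ET3x2 was among the S pools. The difference was 0.20 (SE 0.089, limma adjusted p = 0.360) for ET3x1 over S, the highest of the beta ring there, and 0.17 (SE 0.089, limma adjusted p = 0.482) for ET3x2 over S. Without pools J, A and B it was 0.13 for ET3x1 over S and 0.19 for ET3x2 over S.

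Psmb5 had 3 probe sets. On RAE230A, 1371348_at read 13.17, 12.98, 12.98 and 13.08 in the ET3x2 pools and 13.12, 13.10, 13.10 and 12.98 in the ET3x1 pools, against 12.93, 12.78, 13.01 and 13.04 in the S pools. The strains overlapped, with pool B lowest, and the difference was 0.13 for ET3x1 over S (95% interval −0.026 to 0.29) and 0.11 for ET3x2 over S (−0.046 to 0.27). On RAE230B, 1385531_at averaged 8.19 ± 0.027 in ET3x2, 8.19 ± 0.028 in ET3x1 and 8.15 ± 0.081 in S (SD, n = 4 pools each), with 0.035 for ET3x1 over S and 0.039 for ET3x2 over S. The third, 1385532_x_at, was the lowest of the beta ring for ET3x1 over S, at −0.082, and stood at 0.032 for ET3x2 over S. It read 9.17, 9.11, 9.17 and 9.13 in the ET3x2 pools and 9.04, 9.04, 8.99 and 9.05 in the ET3x1 pools, against 9.06, 9.03, 9.06 and 9.30 in the S pools. Pools of ET3x2 lay above those of ET3x1, by 0.11 (SE 0.063, limma adjusted p = 0.538), and pool D of S stood above all others.

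Among the other alpha subunits, Psma4 read 10.42, 10.26, 10.37 and 10.57 in the ET3x2 pools and 10.61, 10.58, 10.68 and 10.65 in the ET3x1 pools, against 10.49, 10.28, 10.55 and 10.33 in the S pools. Its ET3x1 pools lay above all pools of the other strains. The difference was 0.22 (SE 0.085, limma adjusted p = 0.304) for ET3x1 over S and −0.22 (SE 0.085, limma adjusted p = 0.234) for ET3x2 over ET3x1, while for ET3x2 over S it was −0.0066, the lowest of the ring. Psma3 read 9.64, 9.37, 9.77 and 9.75 in the ET3x2 pools and 9.72, 9.51, 9.49 and 9.60 in the ET3x1 pools, against 9.39, 9.29, 9.52 and 9.30 in the S pools. The ET3x2 pools other than J lay above the S pools, and the difference was 0.26 (SE 0.096, limma adjusted p = 0.341), or 0.31 without pools J, A and B. For ET3x1 over S it was 0.21 (SE 0.096, limma adjusted p = 0.379). The remaining alpha subunits stood between 0.16 (Psma5) and 0.25 (Psma2) for ET3x1 over S and between 0.073 (Psma2) and 0.23 (Psma1) for ET3x2 over S.

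Among the other beta subunits, Psmb2 had the highest difference for ET3x2 over S, at 0.28 (SE 0.12, limma adjusted p = 0.403). It read 11.41, 10.996, 11.39 and 11.40 in the ET3x2 pools and 11.04, 11.37, 11.08 and 11.25 in the ET3x1 pools, against 10.85, 10.95, 11.32 and 10.98 in the S pools. Pool J was low within ET3x2, and pool C was high within S. Psmb3 was highest of the ring for ET3x2 over ET3x1, at 0.22 (SE 0.10, limma adjusted p = 0.334), and stood at 0.25 for ET3x2 over S and 0.030 for ET3x1 over S. Psmb4 was lowest for ET3x2 over S, at 0.030, and for ET3x2 over ET3x1, at −0.061. Psmb1 stood at 0.17 for ET3x1 over S and 0.17 for ET3x2 over S.

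Many core members were high or low in the same pools, and any part of promoter sequence in this was not tested. Promoters of 4 members are shown. They are the catalytic subunits Psmb7 at chr3:42827471-42827720 (minus strand) and Psmb5 at chr15:32047380-32047629 (minus strand), Psmb2 at chr5:144254808-144255057 (plus strand) and the base subunit Psmd1, which has the highest regulatory difference over S, at chr9:94157721-94157970 (plus strand). Sequences and positions are those of RefSeq, build GRCr8, for the 250 bases before the start of the gene, and the 4 were chosen with their values known. Capitals mark a match on either strand to CCAAT or to TGACNNNGC. Each of the 4 has a match, but they do not stand for all members, whose shares for each motif are given below. Of 14 regulatory particle promoters only that of Psmd1 has TGACNNNGC.
Psmb7: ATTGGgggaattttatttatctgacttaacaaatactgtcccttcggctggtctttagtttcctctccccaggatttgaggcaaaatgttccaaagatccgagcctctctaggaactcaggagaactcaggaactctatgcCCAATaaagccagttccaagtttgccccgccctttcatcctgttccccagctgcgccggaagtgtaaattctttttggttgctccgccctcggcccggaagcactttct
Psmb5: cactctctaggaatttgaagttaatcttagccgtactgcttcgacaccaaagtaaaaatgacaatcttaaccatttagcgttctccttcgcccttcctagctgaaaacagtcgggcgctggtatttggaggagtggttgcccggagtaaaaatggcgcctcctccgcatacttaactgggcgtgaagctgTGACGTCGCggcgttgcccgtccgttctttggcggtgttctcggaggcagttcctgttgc
Psmb2: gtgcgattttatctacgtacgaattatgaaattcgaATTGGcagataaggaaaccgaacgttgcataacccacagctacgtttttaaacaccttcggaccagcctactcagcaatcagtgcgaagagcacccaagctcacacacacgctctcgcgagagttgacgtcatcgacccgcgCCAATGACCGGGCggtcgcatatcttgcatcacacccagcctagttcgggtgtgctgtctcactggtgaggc
Psmd1: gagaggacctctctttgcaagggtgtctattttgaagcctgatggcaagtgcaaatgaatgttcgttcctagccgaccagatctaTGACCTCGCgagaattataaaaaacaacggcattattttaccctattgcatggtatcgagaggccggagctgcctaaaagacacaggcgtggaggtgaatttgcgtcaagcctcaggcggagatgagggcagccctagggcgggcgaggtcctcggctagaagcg

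CCAAT is the box bound by nuclear factor Y, and TGACNNNGC is the core of the antioxidant response element, which the transcription factor Nfe2l1 binds in proteasome promoters. In Psmb2 a match of the first overlaps a match of the second by 1 base. The table held a promoter for 39 of the 43 genes, without Psma7, Psmd6, Psmd12 and Psmd14. CCAAT was in 9 of 12 core promoters, 5 of 14 of the regulatory particle and 20 of 39 of all members, or 75%, 35.7% and 51.3%, against 34.3% of 27457 promoters of the same length. TGACNNNGC was in 3 of 12 core promoters, 1 of 14 of the regulatory particle and 6 of 39 of all members, against 10.2% of the 27457. A longer motif, that of nuclear respiratory factor 1, was in 1 of 12 core promoters and 1 of 39 member promoters, against 0.849%. A match says only that these letters are in the window.

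Regulatory particle probe sets lay on both sides of 0. For ET3x1 over S, 10 of 25 were higher, beside 48.4% of all tested, with a median of −0.021. For ET3x2 over S, 13 of 25 were higher, beside 59%, with a median of 0.0044, and for ET3x2 over ET3x1 13 of 25, beside 60.8%, with a median of 0.056. The core median minus the regulatory median was 0.19 for ET3x1 over S, 0.094 for ET3x2 over S and −0.078 for ET3x2 over ET3x1. Without pools J, A and B these values were 0.10, 0.064 and −0.013.

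The core score minus the regulatory score was 0.072 in pool I, −0.12 in J, 0.040 in K and 0.15 in L of ET3x2, 0.052 in pool E, −0.058 in F, 0.21 in G and 0.089 in H of ET3x1 and −0.21 in pool A, −0.19 in B, −0.043 in C and 0.0092 in D of S. The 3 lowest pools were again A, B and J, and the part of the actin 5' minus 3' signal in this was not tested. The regulatory score was highest in pool F and lowest in G, both of ET3x1. In F its score was 0.20 and 14 of 25 probe sets had their highest value of the 12 pools, and in G it was −0.21 and 11 of 25 had their lowest. Pool F was also high in the core (0.14, with the highest value of the 12 pools in 5 of 16 probe sets) and in the assembly chaperones (4 of 8). Over all 21799 tested probe sets the mean deviation was 0.053 in F, the highest of the 12 pools, and −0.045 in G, the lowest but for D (−0.066). In the Gapdh control probe sets the 5' minus the 3' signal was lowest of the 12 pools in G, at −1.04 on RAE230A and −1.12 on RAE230B. In F it was the highest but for J, at −0.71 and −0.62. The part of this signal in the regulatory values was not tested. The regulatory score averaged 0.0089 ± 0.033 in ET3x2, −0.015 ± 0.17 in ET3x1 and 0.0065 ± 0.097 in S (SD, n = 4 pools each).

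**Figure D3:**
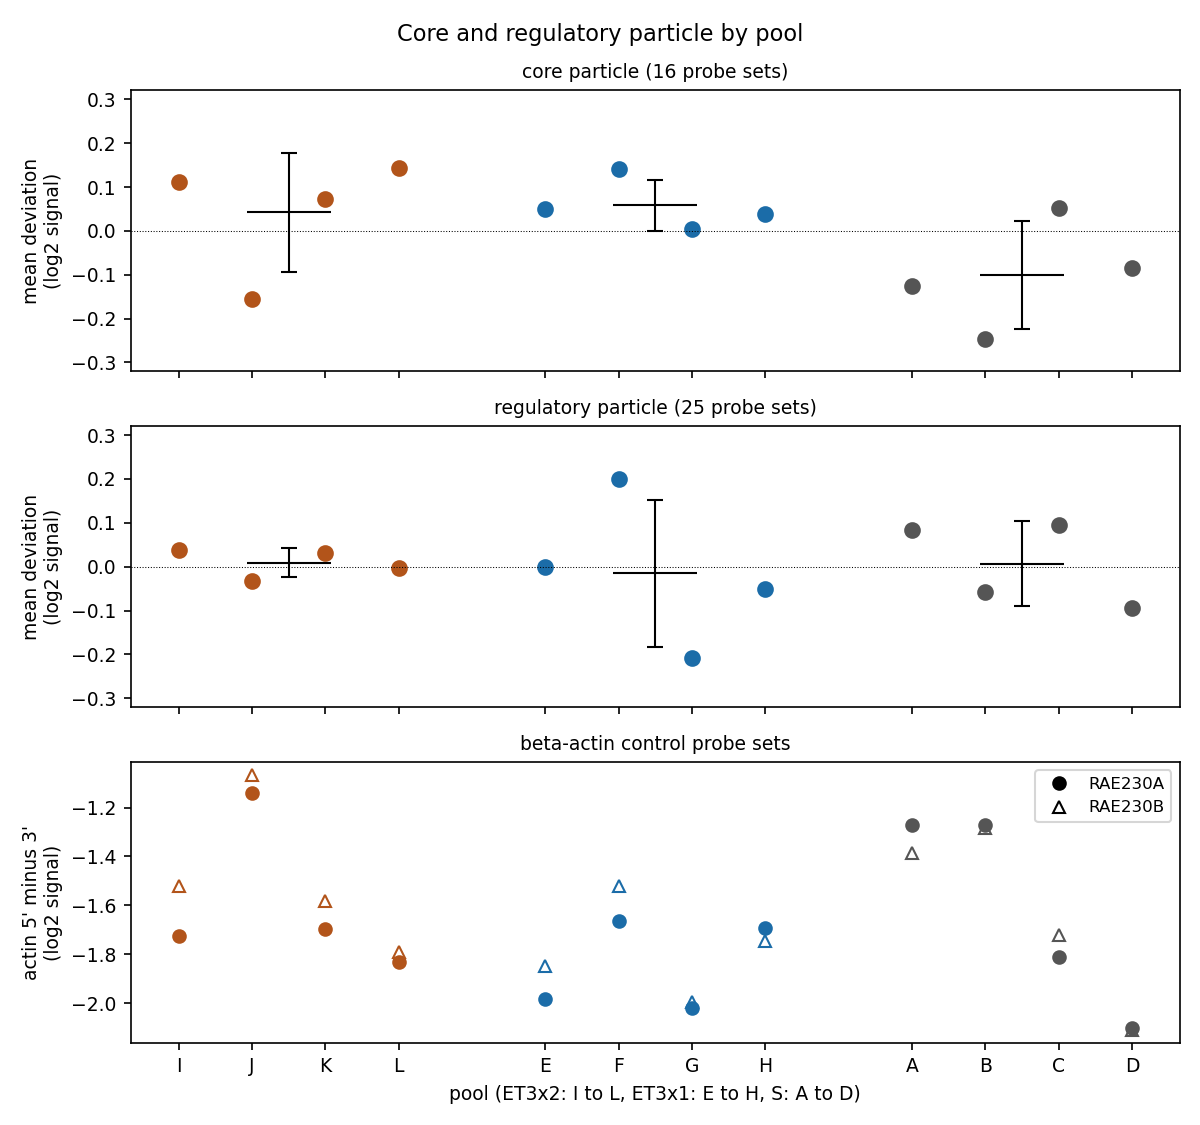
Mean deviation in log2 signal of the 16 core and the 25 regulatory particle probe sets from their own means, by pool (ET3x2, ET3x1, then S), with the mean and SD of each strain, beside the beta-actin 5' minus 3' log2 signal of both arrays. The core is lowest in B (−0.25), J (−0.16) and A (−0.12), and the regulatory particle is highest in F (0.20) and lowest in G (−0.21).

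Of the base ATPases, 2 of 9 probe sets were higher for ET3x1 over S (median −0.091), 4 of 9 for ET3x2 over S (−0.019) and 6 of 9 for ET3x2 over ET3x1 (0.11). Of all tested probe sets, 48.4%, 59% and 60.8% were higher in the same order of contrasts. In pool G, 7 of the 9 had their lowest value of the 12 pools. Psmc3, an ATPase of the ring, read 10.33, 10.41, 10.52 and 10.26 in the ET3x2 pools and 10.10, 10.38, 9.63 and 10.005 in the ET3x1 pools, against 10.43, 10.12, 10.47 and 10.22 in the S pools. Pool F of ET3x1 was among the ET3x2 pools, and pool G was lowest of the 12. The difference was 0.35 for ET3x2 over ET3x1 (SE 0.13, 95% interval 0.068 to 0.64, limma adjusted p = 0.228), the highest of the regulatory particle. It was 0.22 without pool G. For ET3x1 over S it was −0.28 (SE 0.13, limma adjusted p = 0.380), the lowest of the ATPases, and −0.15 without pool G.

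Psmc4 had 3 probe sets, which stood between −0.091 and −0.050 for ET3x1 over S and between 0.11 and 0.15 for ET3x2 over ET3x1. Psmc6 had 2 probe sets. 1384323_at was the highest ATPase probe set for ET3x1 over S, at 0.053, and the lowest for ET3x2 over ET3x1, at −0.13. 1379850_at was the lowest for ET3x2 over S, at −0.17.

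Among the other base subunits, the scaffold subunit Psmd1 had the highest differences over S of the regulatory particle. It read 9.36, 8.84, 9.23 and 9.60 in the ET3x2 pools and 9.34, 9.36, 9.37 and 9.20 in the ET3x1 pools, against 8.81, 8.80, 9.28 and 9.09 in the S pools. Pools J, A and B were the low ones, as in the core. The difference was 0.32 (SE 0.14, limma adjusted p = 0.353) for ET3x1 over S and 0.26 (SE 0.14, limma adjusted p = 0.507) for ET3x2 over S. Without pools J, A and B it was 0.13 for ET3x1 over S and 0.21 for ET3x2 over S, and the second was 0.15 without pool L alone. Psmd2, another scaffold subunit, was lowest of the 3 for ET3x1 over S, at −0.18 (SE 0.088, limma adjusted p = 0.401), or −0.086 without pools J, A and B, and the ubiquitin receptor Psmd4 was lowest for ET3x2 over S, at −0.065.

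Lid probe sets had medians of 0.000073 for ET3x1 over S, 0.014 for ET3x2 over S and −0.0014 for ET3x2 over ET3x1. Psmd6 was highest for ET3x1 over S, at 0.19, Psmd3 for ET3x2 over S, at 0.082, and Psmd8 for ET3x2 over ET3x1, at 0.11. Psmd14, the deubiquitinase of the lid, had 3 probe sets between −0.0057 and 0.11 for ET3x1 over S. Psmd11 was the only gene whose probe sets differed in sign with a gap above 0.3. Its probe set 1374712_at read 11.40, 11.23, 11.17 and 11.20 in the ET3x2 pools and 11.56, 11.71, 11.37 and 11.36 in the ET3x1 pools, against 11.61, 11.28, 11.65 and 11.45 in the S pools. Pools of ET3x2 were low, with pool I reaching into the range of the other strains. For ET3x2 over ET3x1 it stood at −0.25 (SE 0.10, limma adjusted p = 0.267), beside 0.091 for 1376069_at and 0.11 for 1380252_at.

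Psme1 and Psme2 form the interferon-induced activator, which opens the core without ATP. Psme2 read 10.85, 10.58, 10.85 and 10.99 in the ET3x2 pools and 10.84, 10.98, 10.97 and 10.94 in the ET3x1 pools, against 10.48, 10.37, 10.78 and 10.82 in the S pools. The ET3x1 pools lay above the S pools by a narrow margin, and A and B were the low S pools. The difference was 0.32 (SE 0.11, limma adjusted p = 0.258) for ET3x1 over S, or 0.13 without pools J, A and B, and 0.20 (SE 0.11, limma adjusted p = 0.506) for ET3x2 over S, or 0.098 without these pools and 0.12 without pool B alone. Psme1 stood at 0.064 (1367663_at) and 0.066 (1394006_at) for ET3x1 over S and at 0.18 and 0.13 for ET3x2 over S. Psme4, an activator found mostly in the nucleus, had 3 probe sets, none of them called. For ET3x1 over S they stood at −0.11 (1368817_at), 0.032 (1368818_at) and −0.21 (1387345_at), and for ET3x2 over S at −0.16, −0.071 and −0.19. The last of them, the lowest activator probe set in both, stood at 0.053 for ET3x1 over S and −0.025 for ET3x2 over S without pools J, A and B, so that the first changed sign.

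Psmf1, the inhibitor, had the highest member difference for ET3x2 over ET3x1. It read 9.74, 9.46, 9.69 and 9.49 in the ET3x2 pools and 9.14, 9.71, 8.72 and 9.03 in the ET3x1 pools, against 9.44, 9.14, 9.62 and 9.24 in the S pools. The ET3x1 pools were widely spread, with F among the ET3x2 pools and G lowest of the 12. The difference was 0.44 (SE 0.17, 95% interval 0.089 to 0.80, limma adjusted p = 0.222). It was 0.63 without pool F (limma adjusted p = 0.0297) and 0.30 without pool G (limma adjusted p = 0.528). It stood at 0.23 for ET3x2 over S. For ET3x1 over S it stood at −0.21, or −0.40 without pool F and −0.066 without pool G.

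Of the 8 assembly chaperone probe sets, 5 were higher for ET3x1 over S, beside 48.4% of all tested, and 7 for ET3x2 over S, beside 59%. Psmg3, a chaperone of the alpha ring, read 9.57, 9.35, 9.63 and 9.68 in the ET3x2 pools and 9.50, 9.57, 9.49 and 9.47 in the ET3x1 pools, against 9.34, 9.24, 9.48 and 9.26 in the S pools. Pool J of ET3x2 was among the S pools, and ET3x1 overlapped with S at its lower end. The difference was 0.23 (SE 0.085, limma adjusted p = 0.340) for ET3x2 over S and 0.18 (SE 0.085, limma adjusted p = 0.384) for ET3x1 over S. Its partner Psmg4 was highest of the chaperones for ET3x2 over S, at 0.30 (SE 0.13, limma adjusted p = 0.387). Psmd10, a chaperone of the base, was highest for ET3x1 over S, at 0.26 (SE 0.11, limma adjusted p = 0.351), or 0.13 without pools J, A and B, and lowest for ET3x2 over ET3x1, at −0.18. Psmd9 was lowest for ET3x1 over S, at −0.081 in 1397686_at, and Psmd5 for ET3x2 over S, at −0.032. Psmc3ip stood at 0.015 for ET3x1 over S and 0.037 for ET3x2 over S, and Psme3ip1 at −0.16 and −0.070.

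Few members had strains whose pools did not overlap. For ET3x1 over S, 4 of 58 lay wholly above (Psma4, Psma7 1382426_at, Psmb7 and Psme2), beside 4.41% of all tested, and 0 below, beside 1.99%. For ET3x2 over S, Psma7 1382426_at was the only 1 above, beside 3.87%, with 0 below, beside 2.09%. For ET3x2 over ET3x1, 4 lay above (Psmb5 1385532_x_at, Psmc4 1381794_at and 1391768_at, Psmd9 1397686_at), beside 4.96%, and Psma4 lay below, beside 4.18%. None of these shares was far from that of all probe sets.

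Partners of the proteasome were read from a list of 20 genes, of which 19 were tested with 32 probe sets. None was called in any contrast, and at an unadjusted p under 0.05 limma had 10 of 32 (31.2%) for ET3x1 over S, beside 11.8% of all tested, with 6 higher and 4 lower. There were 5 of 32 (15.6%) for ET3x2 over S, beside 10.9%, with 4 higher and 1 lower, and for ET3x2 over ET3x1 5 of 32 (15.6%), beside 13.1%, with 2 higher and 3 lower. The list was chosen with earlier results of these data known, and these shares carry no test. The 4 lower for ET3x1 over S were probe sets of Ubqln1 (−0.52), Ddi2 (−0.49), Akirin2 (−0.40) and Zfand5 (−0.31). Other probe sets of Ubqln1 and Zfand5 stood between −0.14 and 0.070. Sem1, a small lid subunit named outside the Psm scheme, was singled out after its values were seen. It is on both arrays and is counted on each among the 6 higher. On RAE230A the Sem1 probe set 1367500_at read 12.41, 11.91, 12.23 and 12.59 in the ET3x2 pools and 12.52, 12.46, 12.56 and 12.39 in the ET3x1 pools, against 11.95, 11.84, 12.21 and 12.05 in the S pools. All ET3x1 pools lay above the S pools, and pool J of ET3x2 was among the S pools. The difference for ET3x1 over S was 0.47 (SE 0.12, limma adjusted p = 0.170), and 0.43 (SE 0.15, limma adjusted p = 0.310) for the same probe set on RAE230B. For ET3x2 over S these were 0.27 and 0.20.

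Nfe2l1, the transcription factor that raises proteasome genes when activity is short, had 3 probe sets. They stood at 0.045, −0.18 and −0.0014 for ET3x1 over S and at 0.27, −0.018 and −0.050 for ET3x2 over S, none of them called. Pomp, the chaperone that matures the core, averaged 12.63 ± 0.13 in ET3x2, 12.46 ± 0.030 in ET3x1 and 12.45 ± 0.14 in S (SD, n = 4 pools each), with a difference of 0.18 (SE 0.082, limma adjusted p = 0.419) for ET3x2 over S. Of the genes for ubiquitin supply (12 tested of 16, with 26 probe sets) and of cytosolic chaperones (11 of 14, with 18), none was called in any contrast. At an unadjusted p under 0.05 limma had 4 of 26 (15.4%), 2 of 26 (7.69%) and 0 of 26 probe sets of the ubiquitin list for ET3x1 over S, ET3x2 over S and ET3x2 over ET3x1 in turn. The chaperone list had 2 of 18 (11.1%), 1 of 18 (5.56%) and 4 of 18 (22.2%), and all tested probe sets 11.8%, 10.9% and 13.1%. The p97 unfoldase list (12 genes, with 24 probe sets) had 3 of 24 (12.5%), 0 of 24 and 3 of 24 (12.5%) at that p. A probe set each of Uba1, Vcp and Derl1 is on both arrays and is counted on each in these lists. In the p97 list 1 probe set of Ubxn4, an adaptor of the endoplasmic reticulum, was called. It rose in ET3x1 by 1.76 (SE 0.30, limma adjusted p = 0.0150) over S, where 0.44% of all tested were called. In ET3x2 over ET3x1, where 1.48% were called, it stood at −1.91 (SE 0.30, limma adjusted p = 0.00471). The other Ubxn4 probe sets stood for ET3x1 over S at 0.060 and −0.090.

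The immunoproteasome subunits replace the catalytic ones under interferon, and none was called. At an unadjusted p under 0.05 limma had 2 of 3 (66.7%) for ET3x1 over S, beside 11.8% of all tested, both higher. There were also 2 of 3 for ET3x2 over S, beside 10.9%, both higher, and 0 of 3 for ET3x2 over ET3x1, beside 13.1%. These shares carry no test. Psmb8 averaged 9.75 ± 0.093 in ET3x2, 9.90 ± 0.095 in ET3x1 and 9.73 ± 0.070 in S. Psmb9 averaged 9.996 ± 0.18 in ET3x2, 9.94 ± 0.23 in ET3x1 and 9.70 ± 0.074 in S, and Psmb10 averaged 9.64 ± 0.14 in ET3x2, 9.56 ± 0.059 in ET3x1 and 9.44 ± 0.055 in S (SD, n = 4 pools each). The largest of their differences was that of Psmb9, 0.30 (SE 0.11, limma adjusted p = 0.343) for ET3x2 over S and 0.24 (SE 0.11, limma adjusted p = 0.373) for ET3x1 over S.

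Marker lists of immune cells are given beside the interferon-induced genes. The myeloid list held 4 genes, of which Cd74 and Ptprc are not confined to myeloid cells. Ptprc was under the filter. Over the 3 tested (Cd74, Cd68 and Csf1r) the pool means of log2 signal were 10.87 to 11.04 in ET3x2. They were 10.85 to 11.07 in ET3x1, against 10.82 to 10.84 in S. The 3 T cell markers (Cd3d, Cd3e and Cd3g) gave 8.32 to 8.54 in ET3x2 and 8.30 to 8.48 in ET3x1, against 8.16 to 8.40 in S. No probe set of these 2 lists was called. Jchain, the only 1 of 3 B and plasma cell markers tested, gave 8.995 to 9.30 in ET3x2 and 9.004 to 9.59 in ET3x1, against 8.24 to 8.46 in S. Both of its probe sets rose in ET3x1 over S, by 1.72 (SE 0.18, limma adjusted p = 0.000516) and 0.50 (SE 0.079, limma adjusted p = 0.0104). Its first probe set rose in ET3x2 over S as well, by 1.21 (SE 0.18, limma adjusted p = 0.0113), and the second, not called, stood at 0.35 (SE 0.079, limma adjusted p = 0.0880). No marker of red cells (1 tested of 2), adipocytes (2 of 3) or adrenal tissue (1 of 2) was called. The part of these cells in the values of Psme1, Psme2 and the immunoproteasome subunits was not tested.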

How the data were processed

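Kidney RNA pools of 3 rat strains were measured on the Affymetrix arrays RAE230A and RAE230B, per the labels' protocols after oligo(dT)-primed cDNA synthesis and labelling as biotin cRNA. The deposited tables hold 1 value per probe set and pool, read as log2 signal from their range. The summarisation and normalization behind them are not given in the sources used here. Values were used as deposited, without 57 control probe sets per array.

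Strains were compared in limma 3.58.1 (R 4.3.3) per array, over all 12 pools, with lmFit and eBayes with a trend, after the 30th percentile filter. Standard errors come from that fit. It was tested on simulated data. Tables and plots used Python 3.11.15, pandas 2.3.3 and matplotlib 3.10.9. The number of pools limits the precision. Alternatives were no filter, the 50th percentile, quantile normalization, median centring, array weights, a prior without trend, each pool left out, pools A, B and J left out, RefSeq symbols and 1 probe set per gene. RAE230A alone and the separate medians of the particles were added after seeing the data.

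The members, gene lists, roles, motifs and tests were chosen with earlier results of these data known. Named members were those called, Psmb5 and Psmb7, the highest and lowest of each role in each contrast, the 6 with the smallest p, genes whose probe sets disagreed in sign by more than 0.3, Psmc3ip and Psme3ip1, called genes of the lists, and Nfe2l1, Pomp, Psmb8, Psmb9 and Psmb10. Others named, such as Sem1 and those whose pools did not overlap, were chosen after their values were seen. Gene symbols are those of the platform annotation.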

Additional observations from a re-analysis of the deposited data

Results flagged for a closer look

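Within a strain, 1 pool lay far from the other 3 in 5 of 117 groups of 4 pools. There the gap to the nearest pool, divided by the range of the 4 pools, exceeded Dixon's 95% critical value. The 5 are 4.27% of the groups, and chance gives about 1 in 20. In ET3x2 the pool was J each time. Psme1 1367663_at read 12.205 in J against 12.34 to 12.35 in the other ET3x2 pools. Psmb2 1398786_at read 10.9962 against 11.39 to 11.41, and Psmc6 1384323_at read 9.7947 against 9.92 to 9.95. The mean deviation over all 58 members was −0.0771 in J against 0.058 to 0.067. In S, Psmb5 1385532_x_at read 9.301 in pool D against 9.03 to 9.06 in the other S pools.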

How the results depend on the processing

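The count of members called for ET3x1 over S was 0, and 1 (Psma7 1382426_at) with the 50th percentile filter (limma adjusted p = 0.0467), median centring (0.0498), array weights (0.0416) or a prior without trend (0.0493). With each pool left out in turn it was 0 to 1, with Psma7 called without pool B (0.0413), J (0.0468) or L (0.0199). The adjusted p of Psma7 was 0.0572 with no filter, 0.0971 with quantile normalization and 0.0721 without pools A, B and J, and for ET3x2 over S it ran from 0.0740 to 0.383. For ET3x2 over ET3x1 the count was 0, and 2 with array weights (Psmc3, limma adjusted p = 0.0285, and Psmf1, 0.0131). With each pool left out it was 0 to 1, with Psmf1 called without F. For ET3x2 over S it was 0 in every alternative run. The cause of these changes was not tested.

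The core median for ET3x1 over S was 0.099 to 0.24 with each pool left out and 0.064 to 0.17 in the other alternatives, and for ET3x2 over S 0.037 to 0.18 and 0.059 to 0.12. The core minus the regulatory median was 0.14 to 0.25 and 0.10 to 0.23 for ET3x1 over S, and 0.032 to 0.17 and 0.062 to 0.12 for ET3x2 over S. For ET3x2 over ET3x1 both took either sign, with −0.046 to 0.040 for the core and −0.11 to 0.022 for the core minus the regulatory median when each pool was left out. The median of all members ran from −0.012 to 0.053 for ET3x1 over S, 0.014 to 0.078 for ET3x2 over S and −0.012 to 0.075 for ET3x2 over ET3x1 with each pool left out, and the regulatory median from −0.093 to 0.024, −0.013 to 0.041 and −0.042 to 0.086. Of 1992 alternative values for 105 single probe set results, 1982 stayed on their side of the threshold and 10 passed it, while 93 changed sign with no call on either side.

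No paired analysis was possible because the pools of different strains share no replicate number. With 4 pools per strain, differences within the intervals given could not be told from 0, and the unstated normalization limits how far levels can be read.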
